A study of Mus musculus with 16 samples.

Results

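The phagocyte NADPH oxidase carries electrons from NADPH across a membrane to oxygen and so makes superoxide, which neutrophils and macrophages use to kill microbes. Its core is a membrane pair, the catalytic subunit encoded by Cybb (gp91phox or NOX2) and its partner encoded by Cyba (p22phox). On activation the cytosolic subunits, among them those encoded by Ncf1 (p47phox, the organiser) and Ncf4 (p40phox, which binds a membrane lipid), move to that pair together with the small GTPase encoded by Rac2. In people, inherited loss of the membrane or cytosolic phox subunits causes chronic granulomatous disease, in which phagocytes cannot mount this oxidative burst. Transcripts of these 5 subunit genes, of 19937 genes with a row of their own in the table, are described here in bone marrow progenitors of irradiated and unirradiated mice. The genes were chosen by name, with their radiation change in LSK cells in view, and each had 1 row that carried only its symbol.

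Transcript intensities came from 16 arrays in 8 groups of 2. All mice were C57BL/6J, and they were either Parp-2-/-, lacking an enzyme that binds broken DNA and builds poly(ADP-ribose) chains, or wild type (WT). In each genotype a pair of bone marrow populations was sorted. LSK cells lack lineage markers and carry both Sca1 and c-Kit, a gate that holds the blood stem cells. MP cells lack lineage markers and Sca1 and carry c-Kit, a gate that holds the myeloid progenitors. The groups were thus irradiated and unirradiated Parp-2-/- LSK, irradiated and unirradiated WT LSK, irradiated and unirradiated Parp-2-/- MP, and irradiated and unirradiated WT MP. Irradiated groups were taken 2.5 hours after 5 Gy of gamma rays, and the labels used here give no age. Each array held RNA of 1 pool of at least 3 mice, so the spread between mice within a pool is not measured. In such bulk samples, fewer cells of a type and less RNA per cell cannot be told apart.

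The values are log2 intensities, and the median of an array, 4.74 to 4.92, serves here as a guide to background. Arrays of the same group correlated with r of 0.966 to 0.994, and the LSK pools were further apart than the MP pools. Parp2, the targeted gene, was lower in Parp-2-/- cells than in WT cells on every array. It measured 5.70 to 6.77 in Parp-2-/- LSK cells against 7.40 to 7.96 in WT LSK cells, and 6.74 to 7.11 in Parp-2-/- MP cells against 7.98 to 8.40 in WT MP cells. These genotype differences were not called in MP cells (adjusted p = 0.227 irradiated and 1.0 unirradiated) or in unirradiated LSK cells (0.107), and whether the row's probes lie in the deleted part was not examined. The 5 LSK markers with a row of their own (Kit, Hlf, Mecom, Procr and Flt3) lay above the array median on all 8 LSK arrays, while Ly6a, the gene of Sca1, had no such row. All 9 MP markers lay above it on all 8 MP arrays. Kit, Hlf and Flt3 were above it on all 16 arrays, as were Mpo, Elane, Prtn3, Ctsg, Ms4a3 and Car1. For these genes, lying above the median does not tell the populations apart. Of 13 markers of mature neutrophils, Ly6g, Ltf, Mmp8, Mmp9 and Lcn2 were below the median on all 16 arrays, while Cxcr2 was above it on 14, Camp on 13, S100a9 on 12 and S100a8 on 8, the MP arrays. Of 16 macrophage markers, Adgre1, Mrc1, Siglec1, Mertk and Fcgr1 were below it on all 16 arrays, while Cd68, Ccr2 and F13a1 were above it on all 16, Csf1r on 15 and Vcam1 on 14. Unless stated otherwise, differences are limma estimates over the 16 arrays with standard errors (SE), n = 2 pools a group, and p-values are two-sided and adjusted (Benjamini-Hochberg) over all 22961 rows that carry a gene symbol. A difference is called when its adjusted p is under 0.05.

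The start regions of both membrane subunit genes are shown for reference, and whether they bear on the levels of these genes was not tested. Each runs from 250 bases before to 50 bases after the transcript start, 5′ to 3′ along the gene, from RefSeq on GRCm38.p6. That table held 3 of the 5 subunit genes, Cybb, Cyba and Ncf1. Capitals mark matches, on either strand, to 4 motifs: GAAA and GAAA with any 2 bases between them (interferon regulatory factors), GGAA and GAAA with any 2 bases between them (a composite of an ETS factor and an interferon regulatory factor), GAGGAA (the core bound by the ETS factor PU.1) and CCAAT. These occur in 3.44%, 2.72%, 28.3% and 37.4% of 32851 start regions of the same length. The Cybb region lies at chrX:9469275-9469574 on the minus strand, and the Cyba region at chr8:122432891-122433190, also on the minus strand.
Cybb: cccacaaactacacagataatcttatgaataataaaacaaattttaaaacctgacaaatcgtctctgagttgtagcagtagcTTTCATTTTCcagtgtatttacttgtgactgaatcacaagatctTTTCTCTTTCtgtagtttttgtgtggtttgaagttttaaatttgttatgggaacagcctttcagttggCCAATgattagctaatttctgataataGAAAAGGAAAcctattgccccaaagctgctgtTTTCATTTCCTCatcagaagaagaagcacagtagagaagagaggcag
Cyba: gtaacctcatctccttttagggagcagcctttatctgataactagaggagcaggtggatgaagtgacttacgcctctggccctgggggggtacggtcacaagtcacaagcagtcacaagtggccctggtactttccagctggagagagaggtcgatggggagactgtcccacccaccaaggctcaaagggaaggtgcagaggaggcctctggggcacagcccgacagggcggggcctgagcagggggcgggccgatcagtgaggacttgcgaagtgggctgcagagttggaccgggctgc
The Cybb region held 3 matches to the first motif, 1 composite match that overlaps its 1 GAGGAA, and 1 CCAAT. The Cyba region held none of the 4. The Ncf1 region, at chr5:134229576-134229875 on the minus strand, held 1 match, to the first motif. A match describes letters in this window and does not show that a factor binds there.

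Cybb, the gene of the catalytic subunit, was dim in unirradiated LSK cells and bright in irradiated ones. Its log2 level was 7.98 and 8.15 in irradiated Parp-2-/- LSK cells, against 3.74 and 5.58 in unirradiated Parp-2-/- LSK cells. In WT LSK cells it was 6.81 and 7.47 after irradiation, against 4.59 and 5.15 without it. The irradiated arrays lay above the unirradiated ones in both genotypes, and 1 of the 2 unirradiated arrays in each genotype lay below its array's median. The difference was 3.40 in Parp-2-/- LSK cells and 2.27 in WT LSK cells, sizes that are not closely measured because the unirradiated arrays lie on both sides of the background guide. These LSK changes belong to the contrast by which the genes were chosen, so they are given as a description with no test. The unirradiated Parp-2-/- pools were 1.84 apart, the widest gap of any subunit gene in any group. Without the dimmer of them, pool 1, the difference was 2.48, and without pool 2 it was 4.32. The change in Parp-2-/- cells exceeded that in WT cells by 1.14 with an SE of 0.67, and the irradiated Parp-2-/- level exceeded the irradiated WT level by 0.93, both also untested. Without the dimmer unirradiated Parp-2-/- pool the excess of the change was 0.22, and without the other it was 2.06.

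In MP cells Cybb was bright before irradiation and brighter after it. It measured 8.43 and 8.12 in irradiated Parp-2-/- MP cells, against 7.05 and 7.06 in unirradiated ones. In WT MP cells it measured 8.50 and 8.64 after irradiation, against 7.82 and 6.83 without it. The groups did not overlap in either genotype. The difference was 1.22 ± 0.48 (SE) in Parp-2-/- MP cells, or 2.32-fold, with a 95% interval of 0.18 to 2.25 and an adjusted p of 0.664. In WT MP cells it was 1.25 ± 0.48 (SE), or 2.37-fold, with an interval of 0.21 to 2.28 and an adjusted p of 0.589. Neither passed the test over all rows. The radiation change in Parp-2-/- MP cells minus that in WT MP cells was -0.03, with an interval of -1.49 to 1.44 (adjusted p = 1.0), so a difference of over 1 unit in either direction remained within the error.

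Cyba, whose product stabilises the catalytic subunit, did not follow Cybb in LSK cells. Its level was 6.59 and 7.51 in irradiated Parp-2-/- LSK cells, against 6.47 and 7.60 in unirradiated ones. It was 7.004 and 5.97 in irradiated WT LSK cells, against 6.70 and 6.46 in unirradiated ones. In both genotypes the groups overlapped, and the differences were 0.02 in Parp-2-/- and -0.09 in WT cells, each with an SE of 0.40. In MP cells Cyba was 7.41 and 7.34 after irradiation, against 7.26 and 6.77 without it, in Parp-2-/- mice. In WT mice it was 7.44 and 7.69 after irradiation, against 7.09 and 6.98 without it. Irradiated MP arrays thus lay above unirradiated ones in both genotypes, by 0.36 (95% interval -0.50 to 1.23) in Parp-2-/- and 0.53 (-0.34 to 1.39) in WT cells, with limma adjusted p of 1.0 in each.

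Ncf1, the gene of the organiser that tethers the other cytosolic subunits to p22phox, was higher after irradiation on every array in all 4 kinds of cell. It measured 7.24 and 7.61 in irradiated Parp-2-/- LSK cells against 7.05 and 6.79 in unirradiated ones, and 7.26 and 7.67 in irradiated WT LSK cells against 6.20 and 7.11 in unirradiated ones. In MP cells it measured 7.34 and 7.28 in irradiated Parp-2-/- mice against 7.14 and 6.44 in unirradiated ones, and 7.76 and 7.58 in irradiated WT mice against 7.37 and 6.63 in unirradiated ones. In no pair of groups did the arrays overlap. The differences were 0.51 and 0.81 in Parp-2-/- and WT LSK cells, as a description, and 0.52 (95% interval -0.19 to 1.23) and 0.67 (-0.04 to 1.38) in Parp-2-/- and WT MP cells. The MP differences were not called, with limma adjusted p of 1.0 in Parp-2-/- and 0.854 in WT cells.

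Ncf4 encodes the subunit that binds phosphatidylinositol 3-phosphate on phagosomes and its row lay above the array median on all 16 arrays. In irradiated Parp-2-/- LSK cells it did so by only 0.31 and 0.11, so the size of a fall there is not closely measured. Ncf4 was 5.20 and 4.96 in irradiated Parp-2-/- LSK cells, against 5.77 and 5.42 in unirradiated ones. It was 5.65 and 5.50 in irradiated WT LSK cells, against 5.64 and 5.80 in unirradiated ones. Only in the Parp-2-/- LSK groups did the irradiated arrays lie apart from, and below, the unirradiated ones, and the differences of -0.52 and -0.14 in Parp-2-/- and WT LSK cells are descriptions. In Parp-2-/- MP cells it was 5.74 and 5.32 after irradiation, against 5.59 and 5.14 without it. In WT MP cells it was 6.17 and 5.91 after irradiation, against 6.07 and 5.30 without it. These groups overlapped, and the differences were 0.17 in Parp-2-/- and 0.36 in WT MP cells, each with an SE of 0.26 and a limma adjusted p of 1.0.

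Rac2, the GTPase gene expressed chiefly in blood cells, had lower means after irradiation in LSK cells. It measured 8.73 and 7.82 in irradiated Parp-2-/- LSK cells, against 8.71 and 9.19 in unirradiated ones and these groups overlapped. It measured 8.76 and 8.05 in irradiated WT LSK cells, against 9.33 and 8.95 in unirradiated ones, without overlap. The differences were -0.68 and -0.73 in Parp-2-/- and WT LSK cells, as a description. In MP cells it measured 8.21 and 8.02 after irradiation, against 8.67 and 7.88 without it, in Parp-2-/- mice. In WT mice it measured 8.74 and 8.63 after irradiation, against 8.36 and 8.59 without it. The MP differences were -0.16 in Parp-2-/- and 0.21 in WT cells, each with an SE of 0.34 and a limma adjusted p of 1.0.

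**Figure D1:**
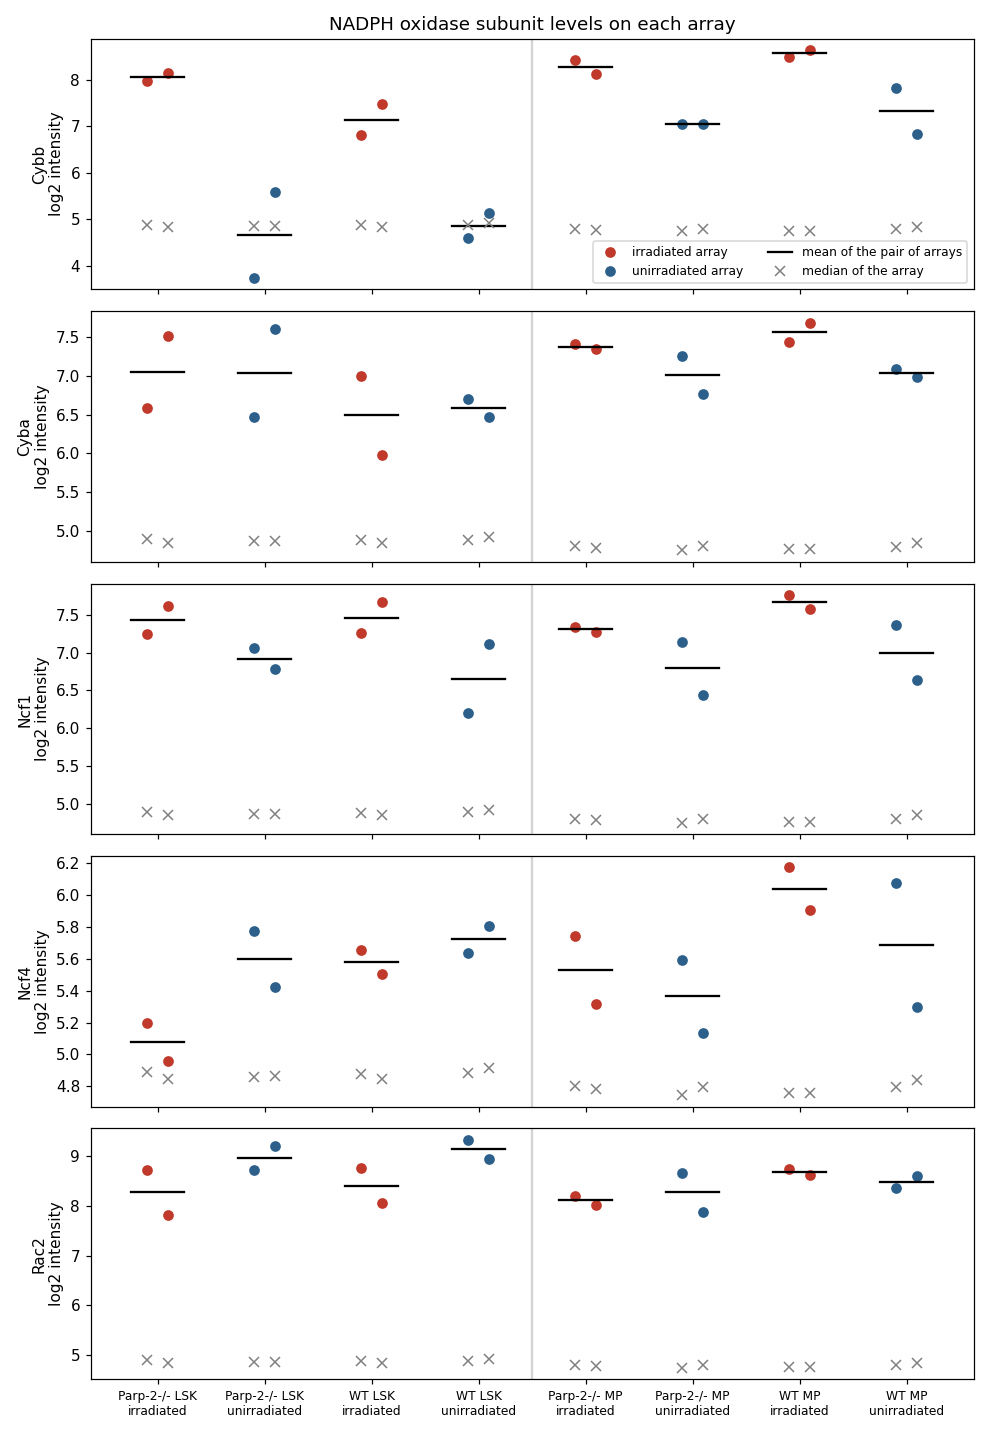
Log2 intensity of each subunit gene on each of the 16 arrays, with the mean of each group's pair of arrays as a bar and each array's median over all rows as a cross; axes are scaled per gene. Cybb reaches 3.74 to 5.58 in unirradiated LSK cells, beside the array medians, and 6.81 to 8.64 in every irradiated group.

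In LSK cells 2 of the 5, Cybb and Ncf1, lay higher on both irradiated arrays in Parp-2-/- and in WT mice, where 17.2% of all rows in Parp-2-/- and 16.4% in WT did so, and 4.42% did so in both. One gene lay lower without overlap in each genotype, Ncf4 in Parp-2-/- (17.9% of all rows) and Rac2 in WT (20.5%). Nothing is read from these LSK counts, since the genes were chosen on them. The median difference over the 5 genes was 0.02 in Parp-2-/- and -0.09 in WT LSK cells, against 0.00 and -0.02 over all rows.

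The MP radiation change was not the contrast by which the genes were chosen. The genes were chosen with earlier results of these data known, however, and the fit takes its spread from the LSK arrays too. In MP cells 0 of 5 subunit genes passed the limma test in either genotype, where 0.588% of all rows did in Parp-2-/- and 0.671% in WT. At an unadjusted p under 0.05, 1 gene passed in each genotype, Cybb, as did 5.75% of all rows in Parp-2-/- and 6.24% in WT. Irradiated arrays lay above unirradiated ones for 3 of 5 genes (Cybb, Cyba and Ncf1) in Parp-2-/- MP cells, against 17.3% of all rows, and for 4 of 5 (Rac2 too) in WT MP cells, against 17.5%. For Cybb, Cyba and Ncf1 this held in both genotypes, as it did for 7.47% of all rows. The 5 genes were measured on the same arrays and are not independent. Their median difference was 0.36 in Parp-2-/- and 0.53 in WT MP cells, against -0.01 and -0.04 over all rows.

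The mean of the radiation changes in both genotypes, a contrast added after seeing the data, gives the MP change with 4 arrays on each side. Cybb was 1.23 ± 0.34 (SE) higher in irradiated MP cells, with a 95% interval of 0.50 to 1.96, and was not called (adjusted p = 0.107), where 1.94% of all rows were. In the same fit with the 8 MP arrays alone its change was the same with an SE of 0.192. It was called there (limma adjusted p = 0.00701), as were 5.07% of all rows. Ncf1 was 0.59 higher (adjusted p = 0.347), Cyba 0.45, Ncf4 0.26 and Rac2 0.02.

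Marker sums, taken on the linear scale over each list, give the other cell types beside these changes. The neutrophil sum was 256 to 304 in irradiated against 279 to 315 in unirradiated Parp-2-/- LSK cells, and 272 to 320 against 305 to 346 in WT LSK cells. The macrophage sum was 562 to 579 in irradiated against 541 to 618 in unirradiated Parp-2-/- LSK cells, and 489 to 546 against 516 to 553 in WT LSK cells. The LSK marker sum was 1372 to 1395 in irradiated against 1707 to 1783 in unirradiated Parp-2-/- LSK cells, and 1184 to 1490 against 1680 to 1734 in WT LSK cells, so it was lower after irradiation on every array. The MP marker sum was 3964 to 4476 in irradiated against 3859 to 3925 in unirradiated Parp-2-/- LSK cells, and 3973 to 4283 against 3355 to 4260 in WT LSK cells. In that list 1 gene, Elane, the neutrophil elastase of granulocyte progenitors, rose in irradiated Parp-2-/- LSK cells (1.63, adjusted p = 0.0410), a call lost in 6 of 9 alternatives (adjusted p of 0.0278 to 0.270 over all 9), among them leaving out any 1 of its 4 arrays. The B cell sum was 264 to 763 in irradiated against 189 to 209 in unirradiated Parp-2-/- LSK cells, and 192 to 359 against 220 to 312 in WT LSK cells, with Cd79a, Ebf1 and Ms4a1 below the median on all 16 arrays, Vpreb1 and Igll1 above it on all 16 and Cd79b on 15. In MP cells the macrophage sum was 933 to 1094 in irradiated against 922 to 991 in unirradiated Parp-2-/- mice, and 1079 to 1123 against 853 to 1291 in WT mice. The neutrophil sum there was 288 to 350 against 321 to 345 in Parp-2-/- mice, and 473 to 615 against 410 to 528 in WT mice. The T and NK sum, in which 1 of 7 genes (Nkg7) lay above the median on any array, was 495 to 538 in irradiated against 395 to 468 in unirradiated Parp-2-/- MP cells, and 698 to 722 against 460 to 533 in WT MP cells. The dendritic cell sum was 212 to 280 in irradiated against 304 to 327 in unirradiated WT LSK cells, and overlapped in Parp-2-/- LSK cells. No neutrophil, macrophage, dendritic, B or T and NK marker was called in any of the 4 radiation comparisons, and the part of these cell types in the subunit changes was not tested beyond these values.

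**Figure D2:**
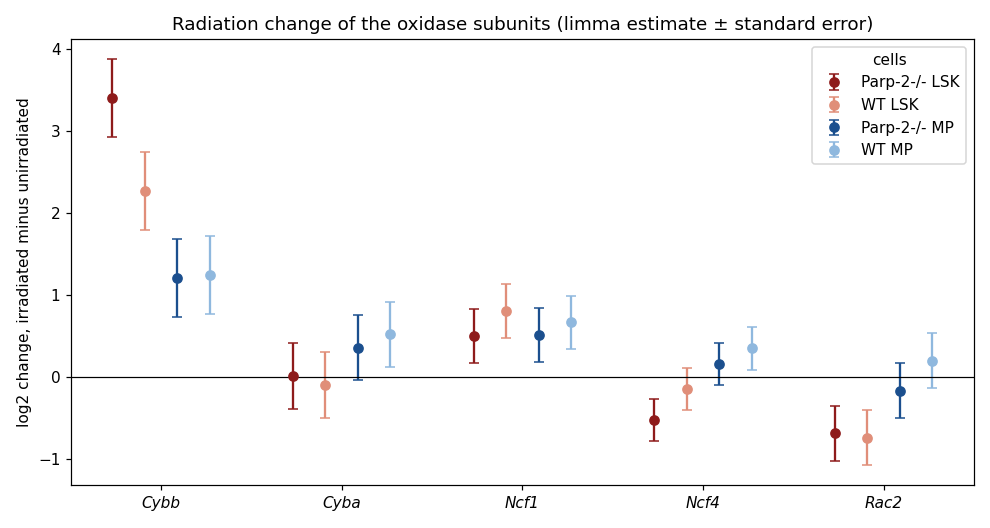
Radiation change of each subunit gene (log2, irradiated minus unirradiated) in the 4 kinds of cell, as limma estimates with standard errors from 2 pools a group. Cybb stands highest in every kind of cell, at 3.40 and 2.27 in LSK cells and 1.22 and 1.25 in MP cells, while Ncf4 and Rac2 lie below 0 in LSK cells.

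Loss of Parp-2 went with slightly lower subunit levels in irradiated MP cells on every array, though no gene passed the test. The estimates were -0.30 for Cybb, -0.19 for Cyba, -0.36 for Ncf1, -0.51 for Ncf4 and -0.57 for Rac2, Parp-2-/- minus WT, with limma adjusted p of 1.0 for each. The 95% interval was -1.07 to 0.05 for Ncf4 and -1.30 to 0.16 for Rac2. Both irradiated Parp-2-/- arrays lay below both irradiated WT arrays for 5 of 5 genes, against 18.3% of all rows, on the same 4 arrays. 0 of 5 were called, where 0.00871% of all rows were. At an unadjusted p under 0.05, 0 of 5 passed, where 1.79% of all rows did. The neutrophil marker sum moved with this difference, at 288 to 350 in irradiated Parp-2-/- MP cells against 473 to 615 in irradiated WT MP cells, and the macrophage sum overlapped, at 933 to 1094 against 1079 to 1123. The T and NK sum was 495 to 538 against 698 to 722, the B cell sum 265 to 267 against 339 to 348, and the MP marker sum 9208 to 10106 against 10426 to 10540. Their part in the result was not tested.

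In unirradiated cells the genotypes overlapped for all 5 genes. In unirradiated MP cells the differences were -0.27 for Cybb, -0.03 for Cyba, -0.21 for Ncf1, -0.32 for Ncf4 and -0.20 for Rac2, with limma adjusted p of 1.0 for each. In unirradiated LSK cells, whose arrays also serve in the contrast used to choose the genes, they were -0.21 for Cybb, 0.45 for Cyba, 0.27 for Ncf1, -0.12 for Ncf4 and -0.19 for Rac2, with limma adjusted p of 0.783 to 0.939. None of the 5 genes was called in either comparison, where 0.00436% of all rows in MP and 0% in LSK cells were. None passed at an unadjusted p under 0.05, where 1.08% of all rows did in MP and 9.31% (2137 rows) in LSK cells. In irradiated LSK cells, given as a description, Cybb was 0.93 higher in Parp-2-/- without overlap, as were 15.5% of all rows, and Ncf4 was lower by -0.50 without overlap, as were 14.8%. Cyba, Ncf1 and Rac2 differed there by 0.56, -0.03 and -0.13, with overlap.

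The genotype by irradiation term in MP cells was near 0 for Cybb (-0.03) and between -0.15 and -0.37 for the others, being -0.16 for Cyba, -0.15 for Ncf1, -0.19 for Ncf4 and -0.37 for Rac2, with limma adjusted p of 1.0 for each. 0 of 22961 rows were called, and 199 passed at an unadjusted p under 0.05, none of them a subunit gene.

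Of the 5 genes 1, Cybb, was called between the populations of unirradiated mice. Cybb was lower in unirradiated LSK than in unirradiated MP cells, by -2.40 ± 0.48 (SE) in Parp-2-/- mice (95% interval -3.43 to -1.36, adjusted p = 0.0183) and by -2.46 ± 0.48 (SE) in WT mice (-3.49 to -1.42, adjusted p = 0.0143). Called lower were 2.52% of all rows in Parp-2-/- and 3.93% in WT, of 3.34% and 5.23% called in either direction. The unirradiated LSK arrays lie on both sides of their array medians, so the sizes are not closely measured. These comparisons share the unirradiated LSK arrays with the contrast that chose the genes, and a low Cybb level on those arrays enlarges both. Their p-values are thus not independent of the choice, and nothing further is read from the calls. With the 8 unirradiated arrays alone neither was called (adjusted p = 0.0894 in Parp-2-/- and 0.0671 in WT). In Parp-2-/- mice the call was lost without LSK pool 1 (-1.48, adjusted p = 0.0796), without MP pool 1 (-2.40, adjusted p = 0.101) and without MP pool 2 (-2.39, adjusted p = 0.143). In WT mice it was lost without MP pool 1 (-1.96, adjusted p = 0.144). The share of all rows called was also lower then, at 0.383% without Parp-2-/- MP pool 2 and 0.81% without WT MP pool 1.

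The other subunit genes showed no called difference between the populations. Rac2 was higher in unirradiated LSK than MP cells without overlap, by 0.68 in Parp-2-/- (limma adjusted p = 0.308) and 0.66 in WT (0.262), as were 33.6% of all rows in each genotype. Cyba differed by 0.02 and -0.46, Ncf1 by 0.13 and -0.35, and Ncf4 by 0.23 and 0.04, in Parp-2-/- and WT mice in that order. The Cyba arrays of WT mice did not overlap, LSK lower, and the share of all rows in that direction is not given here. Granulocyte and erythroid progenitor genes of the MP list moved with Cybb. Of 9, 5 were called lower in unirradiated Parp-2-/- LSK cells (2.52% of all rows) and 7 in WT LSK cells (3.93%). The macrophage sum was 541 to 618 in LSK against 922 to 991 in MP cells of unirradiated Parp-2-/- mice, and 516 to 553 against 853 to 1291 in WT mice. The neutrophil sum was 279 to 315 against 321 to 345 in Parp-2-/- and 305 to 346 against 410 to 528 in WT mice. Their part in the Cybb difference was not tested.

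The same differences after irradiation are given as a description, and no test compares them with those before it. The difference, LSK minus MP, was -0.21 in irradiated Parp-2-/- cells, where the arrays overlapped, and -1.43 in irradiated WT cells, where they did not. Cyba differed by -0.32 and -1.08, Ncf1 by 0.12 and -0.21, Ncf4 by -0.45 and -0.46 and Rac2 by 0.16 and -0.27, in irradiated Parp-2-/- and WT cells. The arrays did not overlap, LSK lower, for 1 of 5 genes in Parp-2-/- cells (Ncf4) and 3 of 5 in WT cells (Cybb, Cyba and Ncf4), as for 21.7% of all rows in Parp-2-/- and 24.5% in WT.

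Ranked by group mean, Cybb stood at 8.57 in irradiated WT MP, 8.27 in irradiated Parp-2-/- MP, 8.06 in irradiated Parp-2-/- LSK, 7.33 in unirradiated WT MP, 7.14 in irradiated WT LSK, 7.06 in unirradiated Parp-2-/- MP, 4.87 in unirradiated WT LSK and 4.66 in unirradiated Parp-2-/- LSK cells. Neighbours whose arrays did not overlap were irradiated WT MP and irradiated Parp-2-/- MP, irradiated Parp-2-/- LSK and unirradiated WT MP, and unirradiated Parp-2-/- MP and unirradiated WT LSK. The group means spanned 3.91 for Cybb, against 1.08 for Cyba, 1.02 for Ncf1, 0.96 for Ncf4 and 1.03 for Rac2. Pooled over the 8 groups, the SD between pools was 0.573 for Cybb, 0.472 for Cyba, 0.377 for Ncf1, 0.284 for Ncf4 and 0.391 for Rac2.

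Few of the genes around the oxidase were called by the same test. The lists of these genes were drawn up with earlier results of these data known, so no call among them is independent of that choice. The 12 further oxidase parts and homologues that were measured held 1 that rose, Nox1, the homologue of NOX2 known from colon epithelium. It rose in irradiated Parp-2-/- LSK cells (0.997, adjusted p = 0.0152) and in irradiated WT LSK cells (1.37, adjusted p = 0.00202), where 1.47% and 1.8% of all rows were called. Nox1 measured 4.56 and 4.38 in irradiated against 3.41 and 3.54 in unirradiated Parp-2-/- LSK cells, and 5.26 and 4.72 in irradiated against 3.54 and 3.69 in unirradiated WT LSK cells. Only 1 of these arrays, irradiated WT pool 1, exceeded its median, so the row is not shown to be above background and its change has no measured size. With the 8 LSK arrays alone neither call held (adjusted p = 0.213 in Parp-2-/- and 0.0821 in WT). The Parp-2-/- call was also lost without irradiated LSK pool 1 (adjusted p = 0.0661) or unirradiated LSK pool 1 (0.0939).

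Of 17 measured of 19 assembly and signalling genes, 2 were called, both lower, in irradiated Parp-2-/- LSK cells (1.47% of all rows were called) and 0 in irradiated WT LSK cells (1.8%). Pik3cg, the catalytic subunit of a phosphoinositide 3-kinase that acts downstream of G protein-coupled receptors, was 7.36 and 7.03 in irradiated against 8.42 and 8.38 in unirradiated Parp-2-/- LSK cells. It fell by 1.20 there (adjusted p = 0.00596) and stood at -0.61 in WT LSK cells (adjusted p = 0.127). Pak2, a kinase that Rac and Cdc42 activate, was 7.75 and 8.27 in irradiated against 9.04 and 8.97 in unirradiated Parp-2-/- LSK cells. It fell by 0.99 there (adjusted p = 0.0152) and stood at -0.17 in WT LSK cells (adjusted p = 0.716). The genotype difference in the Pak2 change was -0.82 and was not called (adjusted p = 0.327). With the 8 LSK arrays alone both calls were lost (adjusted p = 0.0728 for Pik3cg and 0.186 for Pak2), and that of Pak2 also without irradiated Parp-2-/- LSK pool 1 (adjusted p = 0.0672) or unirradiated Parp-2-/- LSK pool 1 (0.0855). Between unirradiated LSK and MP cells 0 genes of this list and 0 of the further oxidase parts were called in either genotype. The list's median radiation change was -0.09 in Parp-2-/- and 0.05 in WT LSK cells.

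Transcription factors reported to act on these genes or on myeloid identity were not called in any radiation comparison of 1 genotype, 17 of 20 being measured. Their median change was -0.40 in irradiated Parp-2-/- and -0.16 in irradiated WT LSK cells, against 0.00 and -0.02 over all rows. Spi1, the gene of PU.1, measured 6.92 and 7.33 in irradiated against 6.997 and 7.05 in unirradiated Parp-2-/- LSK cells, and 7.02 and 6.80 in irradiated against 6.81 and 6.82 in unirradiated WT LSK cells. The 2 largest differences in Parp-2-/- LSK cells were those of Jun (-1.09, adjusted p = 0.283) and Elf1 (-0.68, adjusted p = 0.160). In the mean over genotypes, the contrast added after seeing the data, Gata1 (-1.01, adjusted p = 0.0285) and Jun (-1.26, adjusted p = 0.0466) fell in irradiated MP cells. Of all rows, 1.94% were called in that contrast. Between unirradiated LSK and MP cells, 4 of the 17 were called higher in each genotype, the stem cell factors Meis1, Hoxa9, Hoxa10 and the chromatin organiser Satb1, where 0.827% of all rows in Parp-2-/- and 1.29% in WT were called higher. Meis1 stood at 1.35 in Parp-2-/- and 1.39 in WT. The erythroid factor Gata1 was lower in LSK cells, by -1.52 in Parp-2-/- and -1.19 in WT, and Cebpd was lower by -0.83 in WT.

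Of 12 measured of 14 genes that remove superoxide and peroxide, 1 rose after irradiation. Gpx3, the secreted glutathione peroxidase, was 5.03 and 5.76 in irradiated against 4.04 and 4.41 in unirradiated Parp-2-/- MP cells, and 5.03 and 5.18 in irradiated against 4.20 and 3.89 in unirradiated WT MP cells. It rose by 1.17 in Parp-2-/- (adjusted p = 0.0409), where 0.588% of all rows were called, and stood at 1.06 in WT (adjusted p = 0.0617). In the mean over genotypes it rose by 1.11 (adjusted p = 0.00216), where 1.94% of all rows were called. The unirradiated MP arrays lay below their medians, so these sizes are not measured against a level above background. In 9 alternatives the Parp-2-/- call was kept in 3 and its adjusted p ran from 0.0167 to 0.421; it was lost without irradiated pool 2 (0.393), unirradiated pool 1 (0.421) or unirradiated pool 2 (0.108). Between unirradiated LSK and MP cells, 2 of the 12 were called lower in each genotype, against 2.52% of all rows in Parp-2-/- and 3.93% in WT. These were Prdx4 (-1.64) and the mitochondrial dismutase Sod2 (-1.18) in Parp-2-/- mice, and Prdx3 (-1.19) and the granule peroxidase Mpo (-0.66) in WT mice.

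**Figure D3:**
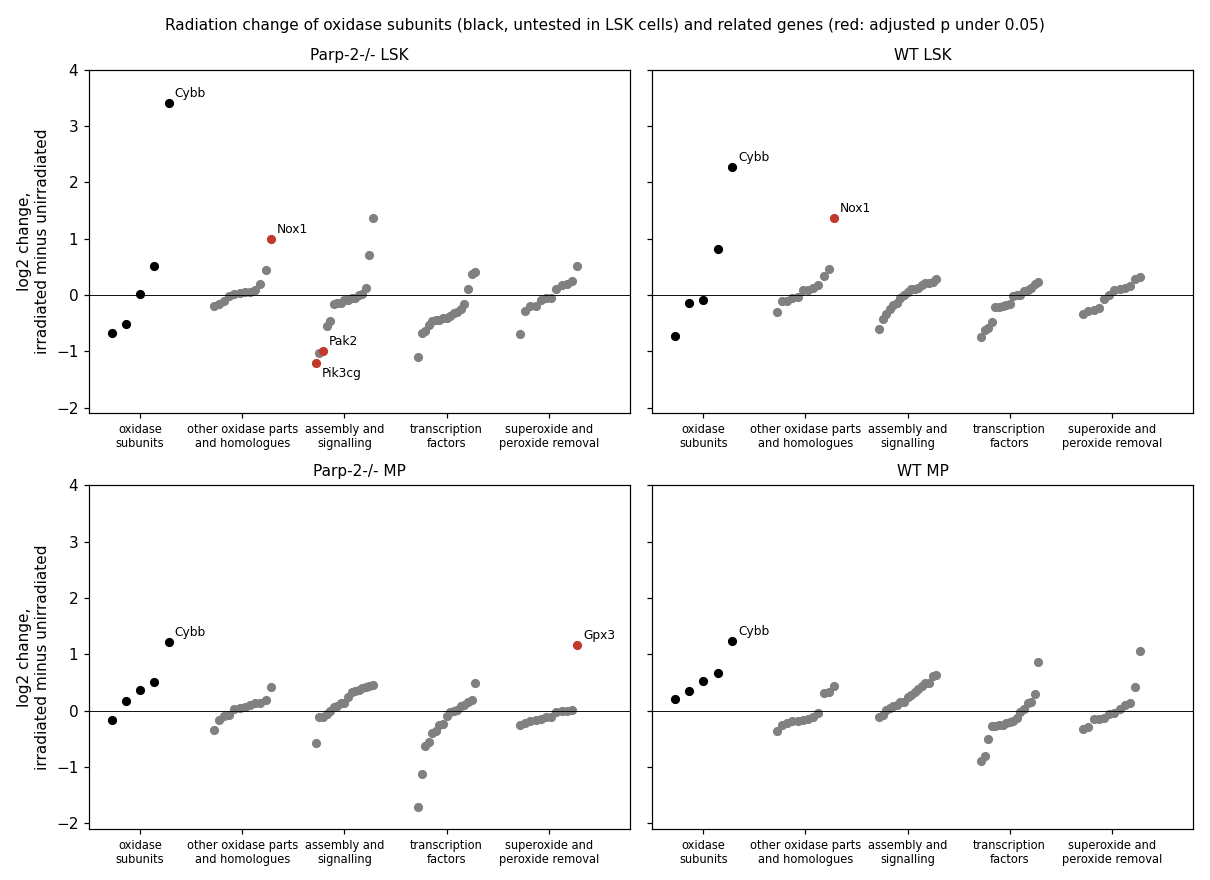
Radiation change (log2, irradiated minus unirradiated) of the 5 subunit genes and of 4 lists of related genes in each kind of cell, 1 point per gene, ordered by size within a list. Of the listed genes Nox1, Pik3cg, Pak2 and Gpx3 have an adjusted p under 0.05 in a panel, and Cybb lies above every listed gene in each panel.

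The genes whose 8 group means followed those of each subunit most closely were taken by Pearson's r among 3311 genes with a range of at least 1 unit over the groups, as a description over 8 points that share the arrays. Nearest to Cybb were Fam185a (r = 0.991), Eif2d (0.988) and Rps27l (0.984), whose group means spanned 1.39, 1.09 and 1.53. Rps27l measured 9.35 and 9.21 in irradiated against 8.37 and 8.01 in unirradiated Parp-2-/- LSK cells, and 9.20 and 9.12 in irradiated against 8.01 and 8.35 in unirradiated WT LSK cells. Nearest to Ncf1 were Lacc1 (0.976), the interferon-induced GTPase gene Gbp3 (0.974) and Wdr91 (0.962). Lacc1 measured 7.51 and 8.30 in irradiated against 6.57 and 6.21 in unirradiated Parp-2-/- LSK cells, and 8.10 and 8.68 in irradiated against 5.88 and 5.30 in unirradiated WT LSK cells. Nearest to Cyba were Lrig2 (0.964), Mrps35 (0.950) and Clcc1 (0.949), to Ncf4 Atp1b1 (0.939), Lpcat2 (0.920) and the row of Mir340 (0.914), and to Rac2 Rhebl1 (0.928), Ripor2 (0.924) and Krt18 (0.912). No gene was nearest to more than 1 subunit.

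**Figure D4:**
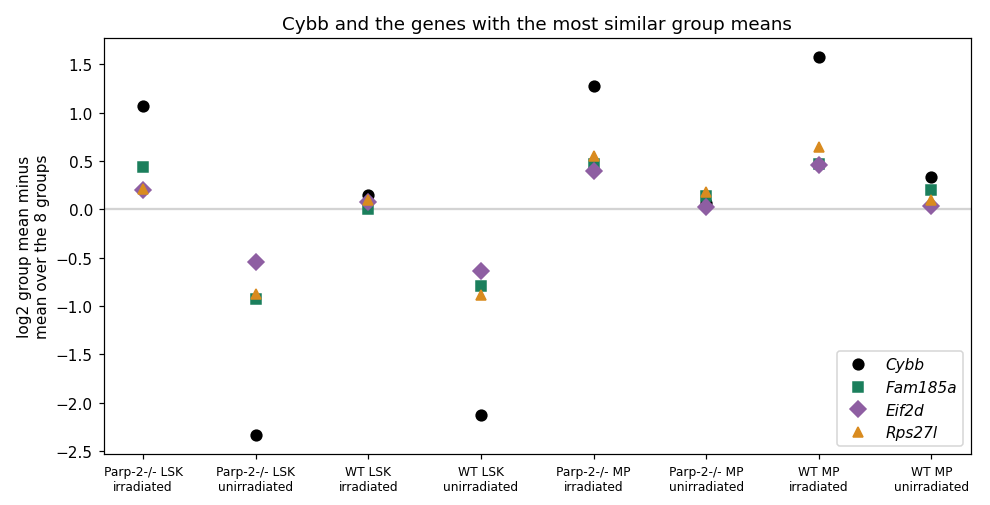
Group means of Cybb, Fam185a, Eif2d and Rps27l, each minus its own mean over the 8 groups (log2). All 4 genes lie lowest in both unirradiated LSK groups, and Cybb spans 3.91 where Fam185a, Eif2d and Rps27l span 1.39, 1.09 and 1.53.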

How the data were processed

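RNA of 16 pools was measured on 1 array each, in 8 groups of 2. The deposited values are log2 intensities from the authors. RMA is named, beside affy 2.10, R 2.15 and limma, per the submitters' processing notes, which assign none a role. The log base was read from the values (1.12 to 13.37), the set of arrays normalised together is not given in the sources used here, and neither is a genome build. Values were used as deposited. Symbols came from GEO's platform annotation: of 34760 rows, 21640 carried 1 symbol, 1321 several and 11799 none, and the 22961 with a symbol were tested.

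A linear model of the 8 group means over 16 arrays was fitted in limma 3.58.1 (R 4.3.3) with moderated variances and Benjamini-Hochberg adjustment, after a check on simulated data. With so few arrays, precision was limited, at a median SE of 0.207 between groups and 0.292 for interactions. Nothing in the labels says that pools are separate experiments beyond their mice, so p-values measure the spread between these pools. The labels give no batch. The subunit genes and all lists were chosen with earlier results of these data known. Every subunit gene is named in every comparison; of a list, the genes called or, with none called, up to 2 with the largest change are named, and 3 genes most alike each subunit; Spi1 was added after its values were seen. Alternatives were a further quantile normalization, a filter on dim rows, an intensity trend, fewer arrays, a replicate block and leaving out each array. The motif search read RefSeq start regions.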

Additional observations from a re-analysis of the deposited data

Results flagged for a closer look

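A pair of results was picked out because every array moved one way in one population and the opposite way in the other, and in neither case was the difference between the populations tested. Rac2 was lower on every irradiated array in WT LSK cells (-0.73) and higher on every irradiated array in WT MP cells (0.21). Cybb was higher on every Parp-2-/- array in irradiated LSK cells (0.93) and lower on every Parp-2-/- array in irradiated MP cells (-0.30), Parp-2-/- minus WT. The LSK values belong to the arrays on which the genes were chosen. With 2 arrays a group, no array could be tested as an outlier.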

How the results depend on the processing

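Of 305 values of the subunit results under alternatives other than leaving out an array, 301 counted as unchanged. For a tested value this means the same direction and call. For an untested LSK value it means a move of less than 1 SD. Under a further quantile normalization the genotype by irradiation term of Cybb in MP cells turned to 0.02 from -0.03, both uncalled. With the 8 unirradiated arrays alone, Cybb in LSK against MP cells (-2.40 in Parp-2-/-, -2.46 in WT) lost its call, leaving 0 of 5 genes called in each genotype. With the 8 MP arrays alone, the mean MP radiation change of Cybb (1.23) gained one, so that 1 of 5 was called, against 5.07% of all rows. The cause was not tested. Of 320 values with 1 array left out, 40 tested ones turned in sign, all of them uncalled differences, and 4 lost a call. Among the untested LSK values 24 moved by over 1 SD. Turns in sign were not counted for these untested values, and some of them did turn.

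With 1 array left out, a lone array is assumed to vary like the other groups, and the values ran as follows. Cybb in LSK against MP cells ran from -3.32 to -1.48 in Parp-2-/- and from -2.95 to -1.96 in WT, with 0 to 1 genes called. For radiation in LSK cells, in Parp-2-/- and WT in that order, Cybb ran from 2.48 to 4.32 and 1.94 to 2.60, Cyba from -0.55 to 0.58 and -0.61 to 0.42, Ncf1 from 0.32 to 0.69 and 0.36 to 1.27, Ncf4 from -0.70 to -0.34 and -0.23 to -0.06, and Rac2 from -1.14 to -0.22 and -1.09 to -0.38. In LSK against MP cells Cyba ran from -0.54 to 0.59 and Ncf1 from -0.22 to 0.48 in Parp-2-/-, and Ncf1 from -0.80 to 0.11 and Ncf4 from -0.35 to 0.43 in WT. For radiation in MP cells, in the same order, Cybb ran from 1.06 to 1.37 and 0.75 to 1.74, Cyba from 0.12 to 0.61 and 0.40 to 0.65, and Ncf1 from 0.16 to 0.87 and 0.30 to 1.04. Ncf4 ran from -0.06 to 0.39 and Rac2 from -0.56 to 0.24 in Parp-2-/-, Ncf4 from -0.03 to 0.74 in WT, and Rac2 from -0.18 to 0.22 in the mean of genotypes. For genotype in unirradiated MP cells Cybb ran from -0.76 to 0.22, Cyba from -0.27 to 0.22, Ncf1 from -0.57 to 0.16, Ncf4 from -0.71 to 0.07 and Rac2 from -0.60 to 0.19. In unirradiated LSK cells these were -1.13 to 0.71, -0.11 to 1.02, -0.19 to 0.73, -0.30 to 0.05 and -0.43 to 0.06 in the same order of genes. The MP interaction ran from -0.52 to 0.47 for Cybb, -0.41 to 0.08 for Cyba, -0.52 to 0.21 for Ncf1, -0.58 to 0.20 for Ncf4 and -0.76 to 0.03 for Rac2.

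Pool numbers are not stated to pair samples, and same-numbered pools did not deviate together (r of -0.173 to 0.227 over 28 pairs of groups, 2 above 0.1). A replicate block changed no call of a subunit gene: Cybb in LSK against MP cells stayed at -2.40 (adjusted p = 0.0207) in Parp-2-/- and -2.46 (0.0165) in WT. Counts of called rows moved by over 1.5 times in some alternatives. LSK against MP called 768 rows in Parp-2-/- and 1200 in WT, against 352 and 606 with the unirradiated arrays alone, and 726 in WT after quantile normalization. Radiation in LSK cells called 337 in Parp-2-/- and 413 in WT, against 51 and 35 with the LSK arrays alone. Radiation in MP cells called 135 in Parp-2-/- and 154 in WT, and 445 in the mean, against 365, 390 and 1163 with the MP arrays alone. With 1 array left out, LSK against MP called 88 to 605 rows in Parp-2-/- and 186 to 1614 in WT, radiation in LSK cells 189 to 469 and 248 to 506, and radiation in MP cells 43 to 56 and 39 to 108. The mean of several rows of a gene could not be tried, since each subunit has 1 row. A level near an array's median, as that of Cybb in unirradiated LSK cells, limits the size of a change.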
